A study of Homo sapiens with 6 samples.

Results

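Krt14 and 9 other keratin genes of the mouse were followed in the RNA of A549 tumours grown under the skin of nude mice. They were given as 10 Ensembl IDs with their symbols, and all 10 were found among the 77134 rows of the table of mouse genes. Krt14 (ENSMUSG00000045545.9) was singled out because, among genes counted in every library, it had the smallest p for a higher level in overexpression tumours. The 9 others were taken in as its family. Of the 10, 6 are epidermal keratins and 4 are keratins of simple, single-layered epithelium.

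A549 is a human lung adenocarcinoma cell line. The cells were made stable carriers of a lentiviral vector named for a CMV promoter, EGFP and Neo, and were then injected under the skin. Control tumours (n = 3) carried the vector alone, and overexpression tumours (n = 3) carried it with HIF1A-AS3, a human antisense RNA of the HIF1A locus. BALB/c nude mice, a strain without a thymus and hence without most T cells, were the hosts, and their age is not stated. Each tumour gave 1 library of total RNA. Whether each tumour had its own mouse is not stated, and the p-values speak only of the spread among these 6 tumours. HIF1A-AS3 itself was not analysed here, so the labels were not checked against it.

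Keratins are the intermediate filament proteins of epithelial cells. A filament is built from pairs, each with 1 acidic (type I) and 1 basic (type II) chain. Basal cells of the epidermis make Krt5 with Krt14, and Krt15 is another type I chain of basal cells and of the hair follicle bulge. Cells that leave the basal layer switch to Krt1 with Krt10, and Krt17 is a type I keratin of hair follicles and of wounded or activated epidermis. Simple epithelia and the carcinomas that come from them carry Krt8 with Krt18, often with Krt7 and Krt19. The table holds mouse genes, so the values describe host cells together with whatever human RNA was assigned to mouse keratins. Human A549 cells have a simple-epithelial keratin programme of their own. The part of human RNA in the counts below, those of Krt17 and the other epidermal keratins included, was not tested.

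Libraries held 4167784 to 4769157 estimated counts. Levels are given as CPM, counts scaled by library total and by a TMM factor, which sets libraries to a common level across genes. Overexpression replicate 1 stood apart from the rest. Its TMM factor was 0.742 against 1.02 to 1.10 in the others, and its mean correlation with the other libraries was 0.906 against 0.922 to 0.939. Fitted changes without this library are given beside each gene tested.

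Keratins resemble each other in sequence, and where reads match more than 1 gene, a value belongs less surely to a single gene. How often reads of these libraries did so was not tested. Mouse keratin sequences were not used here, and the human counterparts in GENCODE v29 (GRCh38) were compared in their place. Of the 31-base words in the coding sequence of KRT17, 6.63% also occur in KRT14, 1.34% in KRT15 and 0.948% in KRT19. The longest stretch that KRT14 and KRT17 share is 59 bases long and lies in exon 4 of both genes, on the minus strand at chr17:41583761-41583849 in KRT14 and chr17:41621594-41621682 in KRT17, flanks of 15 bases included. It is shown because a read that falls inside it fits both genes, and capitals mark the identical stretch.

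human KRT14: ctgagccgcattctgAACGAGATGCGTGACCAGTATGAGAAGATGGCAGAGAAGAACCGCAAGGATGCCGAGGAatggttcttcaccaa
human KRT17: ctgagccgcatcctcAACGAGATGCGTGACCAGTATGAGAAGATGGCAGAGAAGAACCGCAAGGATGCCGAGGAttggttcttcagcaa

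An estimate per gene that is not a whole number can arise where a read is divided among transcripts of more than 1 gene. In the deposited mouse counts, non-whole estimates, to a tolerance of 0.001, occurred in all 6 libraries for Krt14, Krt5, Krt15, Krt17 and Krt19, in 3 libraries for Krt8 and in 2 for Krt7. Those 2 were the only libraries with any Krt7 count, at 5.31 and 4.65. Krt18, Krt1 and Krt10 were whole in all 6. Of all genes tested, 39.3% were non-whole in every library and 22.2% were whole in every library. In the human coding sequences KRT1, KRT10 and KRT18 shared 0 words with any other of the 10, and each of the remaining 7 shared at least 2. The members with whole counts in mouse were the same 3 that share no word in human. Of these, Krt1 had 1 to 10 counts per library and Krt10 had 9 to 17, so whole values there say little about shared reads. Krt5 was non-whole in all 6 libraries, although human KRT5 shares only 2 of its 1740 words. Single values of Krt14, Krt17, Krt15 and Krt19 are uncertain to the extent that reads were split among them or with other genes. Genes outside the 10 were not compared for shared words.

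Of the 10 keratins, 8 passed the filter on low counts and entered the fit across 12637 genes. With edgeR's quasi-likelihood test, 0 of these 8 had a Benjamini-Hochberg adjusted p below 0.05, where 0.0158% of all genes tested did. Krt14, Krt17 and Krt19 were higher at an unadjusted p below 0.05, as were 3.58% of all genes. DESeq2 on the same genes called 2 of the 8, Krt14 and Krt17, both higher in overexpression tumours, where it called 0.222% of all genes. By limma-voom 0 of the 8 were called, against 0.0554% of all genes. The 3 control and 3 overexpression libraries did not overlap for Krt14, Krt17 and Krt19, all higher in overexpression tumours, as for 6.79% of all genes tested. Because Krt14 was chosen on this contrast and the family was added with results known, these counts describe the members and nothing is read from them. Over the 5 epidermal keratins tested the median log2 fold change was 0.31, over the 3 simple-epithelium keratins 0.17, and over all genes 0.01. The epidermal median is the value of Krt15 alone and the simple-epithelium median that of Krt18. Without overexpression replicate 1, Krt15 stood at -0.14 and Krt18 at -0.029.

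**Figure D1:**
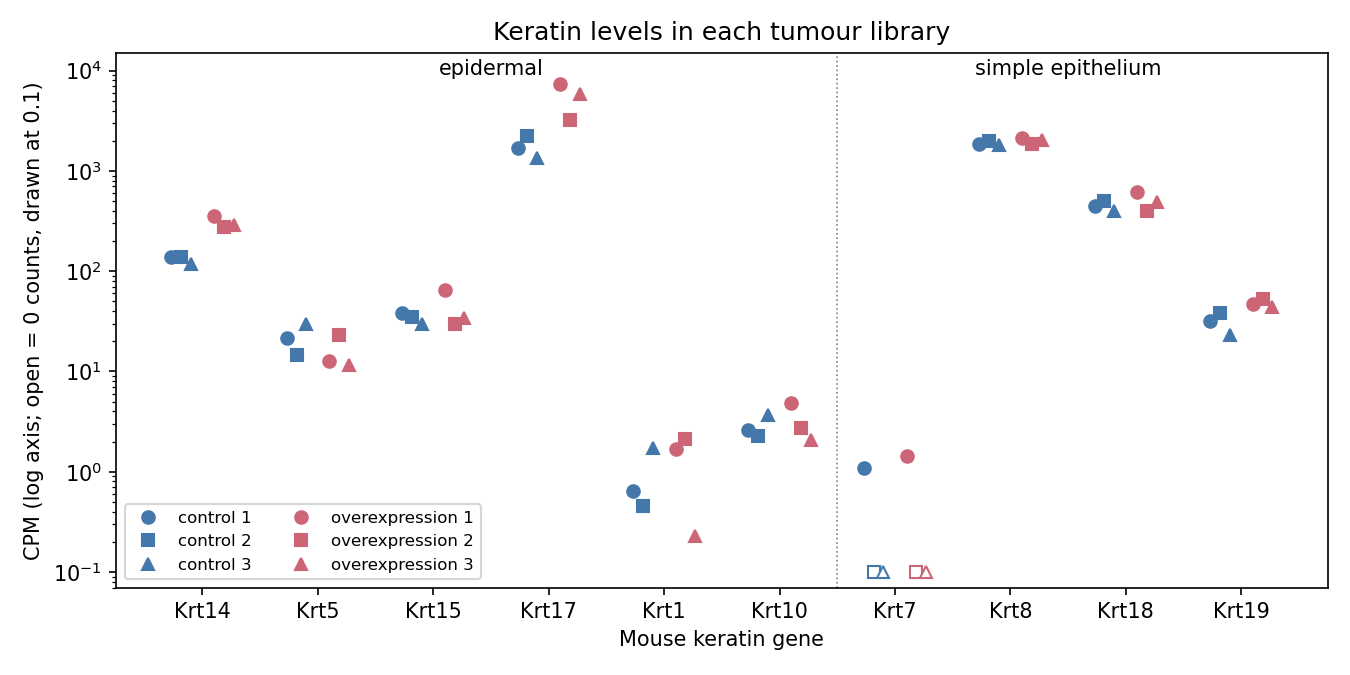
Level of each mouse keratin in CPM on a log axis, with 1 point per tumour library (blue control, red overexpression, symbol by replicate, open symbols for 0 counts). Krt17 and Krt14 stand higher in all 3 overexpression libraries, Krt8 hardly moves, and Krt1, Krt10 and Krt7 lie near the bottom.

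Krt14, the type I chain of basal epidermal cells, stood at 637, 615 and 550 estimated counts in controls 1, 2 and 3 and at 1258, 1297 and 1270 in overexpression replicates 1, 2 and 3. All overexpression libraries lay above all controls, and the 3 values of each group were close together. In CPM the levels were 132 ± 11.7 for control and 308 ± 44.1 for overexpression libraries (SD, n = 3 each). On the log2 scale the fitted change was 1.22 (standard error 0.185), or 2.34-fold by the means, and its 95% interval ran from 1.74- to 3.14-fold. Without overexpression replicate 1 the log2 value was 1.07. This is the value the gene was chosen for, so its fold change, interval and p-values, where they appear here, are descriptions and not tests. Its p was the 9th smallest of all genes tested, behind genes at 0 throughout 1 group or lower in overexpression tumours.

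Krt17 (ENSMUSG00000035557.10), a type I keratin of follicles and activated epidermis, was the keratin with the largest fitted difference between the groups. It had 7787, 9815 and 6285 estimated counts in controls 1, 2 and 3, and 25987, 15150 and 25558 in overexpression replicates 1, 2 and 3. Overexpression replicate 2 was the lowest of its group and still above every control. Control libraries averaged 1751 ± 439 CPM and overexpression libraries 5484 ± 2122 CPM (SD, n = 3 each), 3.13-fold by the means. Fitted on the log2 scale, the change was 1.65 (standard error 0.38), with a 95% interval of 1.69- to 5.81-fold. It exceeded the change of 99.7% of all genes tested.

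The call for Krt17 depended on the test. Its adjusted p was 0.70 in edgeR, 0.71 in limma-voom and 0.0017 in DESeq2, and 0.060 in edgeR without the filter on low counts. The spread among overexpression tumours was wide, with a coefficient of variation of 38.7% against 25.1% in controls. Without overexpression replicate 2 the log2 fold change was 1.92, and without overexpression replicate 1 it was 1.34. By CPM, which is not scaled by gene length, Krt17 was the 48th most counted gene in controls and the 9th in overexpression tumours, of the 12637 tested.

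**Figure D2:**
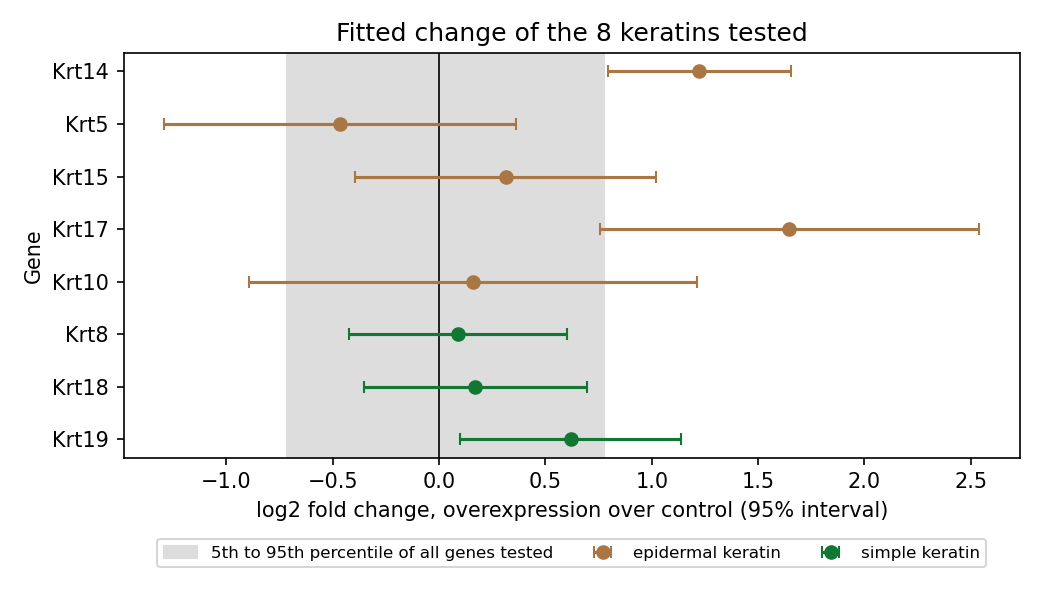
Fitted log2 fold change, overexpression over control, of the 8 keratins tested (points) with 95% intervals (bars), and the 5th to 95th percentile of all genes tested (grey). Krt17 at 1.65 and Krt14 at 1.22 lie beyond the grey band, and the other 6 lie inside it.

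Krt5 (ENSMUSG00000061527.8), the type II partner of Krt14 in basal cells, had a fitted change in the other direction that did not pass the test. It had 99.1, 63.8 and 138 estimated counts in controls 1, 2 and 3 and 45.2, 109 and 49.6 in overexpression replicates 1, 2 and 3. The groups overlapped, with overexpression replicates 1 and 3 below every control and replicate 2 among them. Its log2 fold change was -0.47 (standard error 0.36, edgeR adjusted p 0.76), with a 95% interval of 0.41- to 1.28-fold. Leaving out 1 library at a time gave -0.85 (without overexpression replicate 2) to -0.18 (without control replicate 3), and -0.37 without overexpression replicate 1.

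The balance of the basal pair can be read as a ratio of counts. Krt14 counts per Krt5 count were 6.42, 9.64 and 3.97 in controls 1, 2 and 3, and 27.9, 11.9 and 25.6 in overexpression replicates 1, 2 and 3. The groups did not overlap, although overexpression replicate 2 lay close to control replicate 2. These ratios are of counts, not of transcripts per length, and Krt14's part in them is the value it was chosen for.

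Krt15 (ENSMUSG00000054146.9), the further basal type I chain, had 177, 155 and 140 estimated counts in controls 1, 2 and 3 and 229, 142 and 148 in overexpression replicates 1, 2 and 3. The groups overlapped, and overexpression replicate 1 was the highest library. A log2 fold change of 0.31 was fitted (standard error 0.31, edgeR adjusted p 0.80), and without overexpression replicate 1 it was -0.14. Krt14 counts per Krt15 count were 3.59, 3.97 and 3.91 in controls and 5.49, 9.14 and 8.56 in overexpression replicates 1, 2 and 3. In this ratio too, Krt14's part is the value it was chosen for.

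The keratins of differentiating epidermis were near the limit of detection in all tumours. Krt1 (ENSMUSG00000046834.8) had 3, 2 and 8 counts in controls 1, 2 and 3 and 6, 10 and 1 in overexpression replicates 1, 2 and 3, and did not pass the filter. Krt10 (ENSMUSG00000019761.11), its type I partner, had 12, 10 and 17 counts in controls and 17, 13 and 9 in overexpression replicates 1, 2 and 3. Neither gene separated the groups. For Krt10 the log2 fold change was 0.16, with a wide 95% interval of 0.54- to 2.32-fold, and without overexpression replicate 1 it was -0.27. The sets of basal and suprabasal markers beyond keratins were not analysed here, since the tables used here pair no mouse ID with a symbol.

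Among the simple-epithelium keratins, Krt8 was the most even of all members. This gene (ENSMUSG00000049382.11) encodes the type II chain of single-layered epithelium and had 8497, 8742 and 8478 estimated counts in controls 1, 2 and 3 and 7454, 8887 and 8760 in overexpression replicates 1, 2 and 3. Control libraries averaged 1879 ± 85.7 CPM and overexpression libraries 2002 ± 123 CPM (SD, n = 3 each). Its fitted log2 fold change was 0.09 (standard error 0.22, edgeR adjusted p 0.93), with a 95% interval of 0.75- to 1.52-fold. With library totals in place of TMM, which lowers the median of all genes from 0.01 to -0.21, the value was -0.14. Without overexpression replicate 1 it was 0.017.

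Krt18 (ENSMUSG00000023043.8), the type I partner of Krt8, did not separate the groups either. It had 2049, 2217 and 1842 counts in controls 1, 2 and 3 and 2161, 1911 and 2141 in overexpression replicates 1, 2 and 3, with overlapping groups. On the log2 scale the fitted change was 0.17 (edgeR adjusted p 0.85), with a 95% interval of 0.78- to 1.62-fold. It was -0.029 without overexpression replicate 1 and -0.085 with library totals only. Krt8 counts per Krt18 count were 4.15, 3.94 and 4.60 in controls and 3.45, 4.65 and 4.09 in overexpression replicates 1, 2 and 3, and the groups overlapped.

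Krt19 (ENSMUSG00000020911.15), the small type I keratin of simple epithelium and of follicle stem cells, had 147, 171 and 107 estimated counts in controls 1, 2 and 3 and 164, 253 and 189 in overexpression replicates 1, 2 and 3. In CPM it measured 31.2 ± 7.86 for control and 47.8 ± 5.03 for overexpression libraries (SD, n = 3 each), and the groups did not overlap. Its log2 fold change was 0.62 (standard error 0.22, edgeR adjusted p 0.70), and 0.61 without overexpression replicate 1. Scaled by library totals only, the groups overlapped, with overexpression replicate 1 at 34.6 in place of 46.6 CPM, and the log2 fold change was 0.40. On that scale Krt14 and Krt17 still had no overlap, with log2 fold changes of 0.98 and 1.37, as had 2.1% of all genes in the higher direction.

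Krt7 (ENSMUSG00000023039.18), the type II keratin of glandular and ductal epithelium, was almost absent from the table. It had 5.31 estimated counts in control replicate 1, 4.65 in overexpression replicate 1 and 0 in the other 4 libraries. A count of 0 allows 3 counts, or up to 0.632 to 0.690 CPM in those 4 libraries, counting error only. Mouse Krt8 and Krt18 were counted well above this limit in every library and mouse Krt7 was not. The labelled tissue is a human adenocarcinoma of simple-epithelial origin, and whether human RNA reached these counts was not tested.

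**Figure D3:**
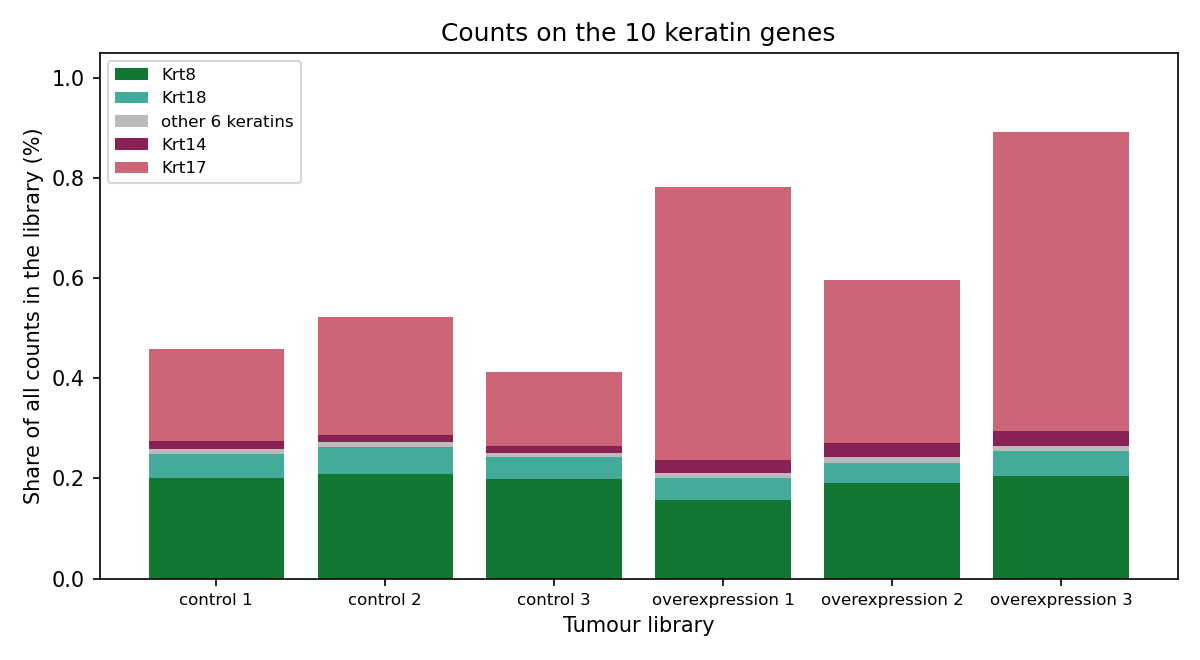
Counts on the 10 keratins as a percentage of all counts in each tumour library, stacked by gene, with the 6 least counted keratins other than Krt8, Krt18, Krt14 and Krt17 drawn together. The Krt17 layer spans 0.147% to 0.235% in controls and 0.325% to 0.598% in overexpression tumours, and the Krt8 layer lies between 0.156% and 0.210%.

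Counted together, epidermal keratins made up a larger part of keratin counts in overexpression tumours. They held 44.9%, 48.9% and 40.6% of the counts on the 10 genes in controls 1, 2 and 3, and 73.8%, 60.2% and 70.9% in overexpression replicates 1, 2 and 3. The widest 95% Wilson interval was 39.9% to 41.4%, for control replicate 3, and it covers counting error only. The group means were 44.8% ± 4.14 for control and 68.3% ± 7.16 for overexpression libraries (SD, n = 3 each), and the groups did not overlap. Without overexpression replicate 1 the difference between the means was 20.7 percentage points in place of 23.5. No test was made of this share, because it is a sum over members chosen with results known. In bulk tumour RNA, more cells of a type and more RNA per cell cannot be told apart, and the part of human RNA was not tested.

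Most of that share was 1 gene. Krt17 held 40.1%, 45.0% and 35.8% of keratin counts in controls 1, 2 and 3 and 69.6%, 54.6% and 67.0% in overexpression replicates 1, 2 and 3. Without Krt17 the epidermal share was 7.54% ± 0.460 for control and 12.6% ± 0.995 for overexpression libraries (SD, n = 3 each). Most of that remainder was Krt14, the gene chosen on this contrast. Without Krt14 as well, the share was 2.65%, 2.03% and 2.83% in controls 1, 2 and 3 and 2.95%, 2.42% and 1.84% in overexpression replicates 1, 2 and 3, and the groups overlapped. Counts on the 4 simple-epithelium keratins summed to 10752 ± 355 for control and 10642 ± 743 for overexpression libraries (SD, n = 3 each). Those on the 6 epidermal keratins summed to 8838 ± 1765 and 23767 ± 6107.

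By chain type, acidic keratins made up more of the keratin counts with overexpression, and this too lay with Krt17 and Krt14. Type I chains held 55.7%, 59.6% and 50.9% of keratin counts in controls 1, 2 and 3 and 79.9%, 67.6% and 76.9% in overexpression replicates 1, 2 and 3. Without those 2 genes, type I chains held 21.7%, 22.5% and 19.6% of the remaining keratin counts in controls and 25.5%, 20.5% and 22.0% in overexpression replicates 1, 2 and 3, and the groups overlapped. Krt14 and Krt17 did not keep a fixed proportion. Krt14 counts were 8.18%, 6.27% and 8.74% of Krt17 counts in controls and 4.84%, 8.56% and 4.97% in overexpression replicates 1, 2 and 3. In CPM, overexpression replicate 1 was the highest library for both genes, at 357 for Krt14 and 7381 for Krt17, and within the group replicate 2 was the lowest for both, at 273 and 3193. The top place of replicate 1 for both genes, and the lowest place of replicate 2 for Krt14, depended on the TMM factor. The lowest place of replicate 2 for Krt17 did not. By library totals only, overexpression replicates 1, 2 and 3 stood at 265, 280 and 299 CPM for Krt14. For Krt17 they stood at 5477, 3269 and 6019 CPM.

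**Figure D4:**
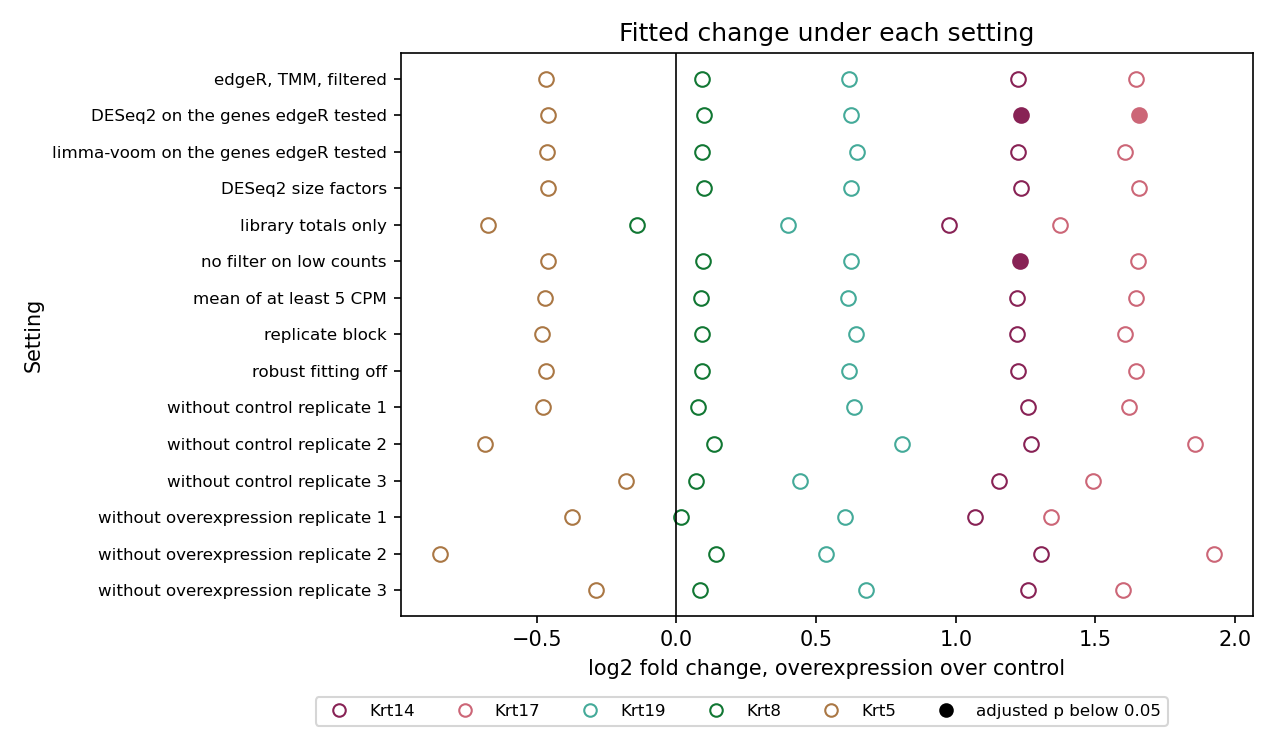
Fitted log2 fold change, overexpression over control, of 5 keratins under each of 15 settings (filled points have an adjusted p below 0.05). Krt14 ranges from 0.98 to 1.31 and Krt17 from 1.34 to 1.92, and filled points appear for Krt14 with DESeq2 and without the filter on low counts, and for Krt17 with DESeq2.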

How the data were processed

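Total RNA of 6 tumours was sequenced. The authors deposited 1 table of estimated counts per mouse gene, not normalized, per the file header, and its name points to salmon. Per the submitters' processing notes the tools were DESeq2, edgeR, featureCounts 2.0.6, HISAT2 2.2.1 and Trimmomatic 0.39 and the build mm10, with no role or order given. Whether human reads were removed is not stated in these sources. All 6 columns matched a tumour by name.

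Estimated counts were rounded and low rows removed (filterByExpr, edgeR 4.0.16, R 4.3.3), which left 12637 genes with 99.5% of counts. Groups were compared with TMM and edgeR's robust quasi-likelihood test, group only, Benjamini-Hochberg over all genes tested. Standard errors are the log2 fold change over the square root of F. DESeq2 1.42.0, limma-voom (limma 3.58.1), other scalings and filters, a replicate block and leaving out each library were alternatives. On simulated data of the same depth and spread, with 12299 genes tested, 79% of 4-fold and 8% of 2-fold changes were recovered, and 11 of 98 calls were false. The edgeR fit of the tumours made only 2 calls, and recovery depends on how many genes change, so these rates need not hold for the tumours.

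Same-numbered libraries of the 2 groups had deviations from their group means that correlated at -0.09, -0.34 and -0.10, and the labels do not pair them. The members and lists were chosen with earlier results of these data known. All 10 members are named. Marker lists by symbol were not analysed here, since no table used here pairs mouse IDs with symbols. Human coding sequences came from the longest coding transcript of each gene in GENCODE v29.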

Additional observations from a re-analysis of the deposited data

How the results depend on the processing

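EdgeR called 2 genes in all. On the same genes DESeq2 called 28 and limma-voom 7, and edgeR called 4 when scaled by library totals, 14 without the low-count filter, 0 with a replicate block, and 0 to 14 when 1 library was left out. Of the keratins edgeR called 0. The number was 2 with DESeq2 (Krt14 and Krt17), 1 with no filter (Krt14) and 0 under every other alternative run, the replicate block included. With the block, log2 fold changes were 1.22 for Krt14 and 1.60 for Krt17, both at an adjusted p of 0.95 (edgeR). Over 14 alternatives the adjusted p of Krt17 ranged from 0.0017 to 1.00. With library totals only, Krt10, Krt8 and Krt18 changed sign, to -0.12, -0.14 and -0.085. Krt15, Krt10 and Krt18 did so without overexpression replicate 1, and over the 6 fits that leave out 1 library they ranged from -0.14 to 0.52, -0.27 to 0.40 and -0.029 to 0.31. None of these values passed the threshold. The difference in epidermal share of keratin counts, 23.5 percentage points, was 1.43 as a log2 ratio of mean CPM, 5.11 points without Krt17 and -0.10 points without Krt17 and Krt14, the last 2 chosen after seeing the data. The share per kilobase of coding length was not run, since no mouse lengths were used here. Krt1 and Krt7, at 10 counts or fewer in every library, were below the filter and are given as counts only.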
